A study of Sus scrofa with 15 samples.

Results

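The collagen hydroxylases and crosslinking enzymes described here are 10 genes, taken by name from the 26654 genes measured. They are P4HA1, P4HA2 and P4HA3, catalytic subunits of prolyl 4-hydroxylase, the lysyl hydroxylases PLOD1 and PLOD2, the lysyl oxidases LOX, LOXL1, LOXL2 and LOXL4, and SERPINH1, which is no enzyme but the collagen chaperone HSP47. All 10 were in the table and passed the low-count filter in each main fit. When every library was thinned to the shallowest total, 9 of them were tested.

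Fibrillar collagen is made as procollagen chains in the endoplasmic reticulum. There prolyl 4-hydroxylases modify prolines, which lets the triple helix stay folded at body temperature, lysyl hydroxylases modify lysines that later take part in crosslinks, and SERPINH1 holds the folded helix until it leaves for the Golgi. Outside the cell the copper-dependent lysyl oxidases oxidise lysines of collagen and elastin, after which fibres crosslink, and in the corpus cavernosum such fibres form the trabeculae around the blood spaces.

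Polyadenylated RNA came from pig (Sus scrofa) penile corpus cavernosum, the spongy erectile tissue, in 5 groups of 3 libraries. One group is normal tissue and another is named defect. There are 3 implantation groups, labelled A, B and ECs+. By design, defect is compared with normal, implantation A with both of these, and ECs+ implantation with implantation B. The other 6 pairs are used below for the order of the levels and for ECs+ implantation against normal tissue. The labels state no breed, age, time, implant material or other treatment for any group. What ECs stands for, and what separates implantation A from B, is not given either. Whether each library is a different animal is not stated, so the p-values cover the spread of the 3 libraries in a group, which could be technical. In the labels, the 3 ECs+ implantation samples also carry the name of a normal sample, and their group rests on titles and column names.

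Total counts lay between 17234169 and 19644793 in 13 libraries, while defect 1 and defect 2 held only 207769 and 250178. Levels in CPM are counts scaled to the library total and its TMM factor, and a single count was worth 4.81 and 3.997 CPM in those 2 libraries before that factor. The factors were 1.03, 0.998 and 0.844 in defect 1, 2 and 3, so this scaling raises defect 3 against the other 2. The members had 1 to 145 counts in defect 1, 3 to 171 in defect 2 and 226 to 12213 in defect 3. The fit gives a library more weight the more counts it holds, so fitted changes in defect, and their p-values, lean on defect 3. P4HA3, for example, had a fitted log2 fold change over normal of 0.97, and of 0.34 without defect 3. Endothelial and smooth muscle markers, which define the labelled tissue, were detected in every group, with summed levels of 1834 to 3862 and 2854 to 5824 CPM over the group means and 0 markers at 0. Keratinocyte markers summed to 853 to 2614 CPM in 4 groups and to 2.59 CPM in ECs+ implantation, where KRT15 had 0 counts. In bulk tissue, fewer cells of a type and less RNA per cell cannot be told apart.

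Per transcript length, on the deposited TPM scale, SERPINH1 was the most abundant member in all 5 groups, with a level of 472 ± 24.7 in normal, 614 ± 2.14 in defect, 732 ± 11.6 in implantation A, 647 ± 7.14 in implantation B and 240.1 ± 9.295 in ECs+ implantation (mean ± SD, n = 3). LOXL4 was the least abundant in all 5, between 1.29 ± 0.275 TPM in normal and 4.94 ± 2.22 TPM in defect. The others lay between these levels, and no member kept its rank among them through all groups except these 2. All other levels are such CPM, with TMM factors of the 15 libraries, unless another scale is named.

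**Figure D1:**
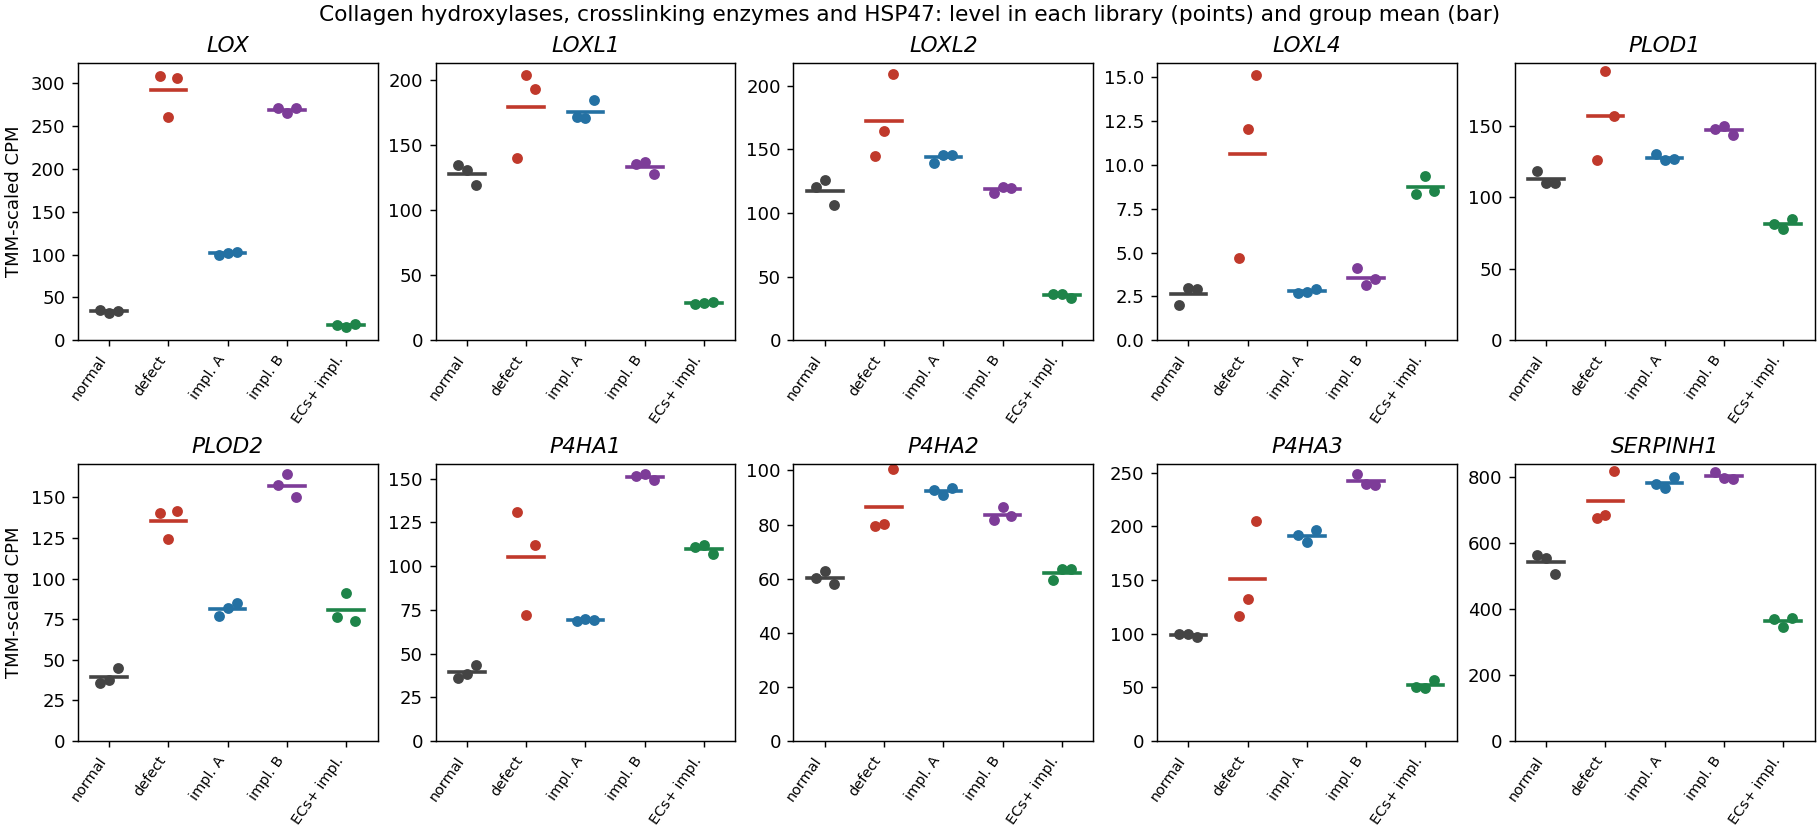
Level of each of the 10 genes in CPM (vertical axes, each from 0) in the 15 libraries (points) of 5 groups (horizontal axes), with the group mean. LOX sits at 260.2 to 308 CPM in defect and 16.1 to 19.0 CPM in ECs+ implantation, while P4HA1 is lowest in normal, at 36.1 to 43.7 CPM.

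P4HA1 (chromosome 14, 75827207 to 75919121 on Sscrofa11.1), a prolyl 4-hydroxylase subunit known to be raised by low oxygen in many cells, stood at 36.1, 38.0 and 43.7 CPM in the normal libraries, 131, 72.1 and 112 in defect, 68.4, 69.9 and 69.3 in implantation A, 151, 153 and 149 in implantation B, and 111, 112 and 107 in ECs+ implantation. The 3 normal libraries were the lowest of the 15, and of the 5 groups only defect and ECs+ implantation overlapped. By edgeR's quasi-likelihood test with Benjamini-Hochberg adjustment over all genes, the test behind every adjusted p below, P4HA1 was higher in defect than in normal with a log2 fold change of 1.49 and a standard error (the ± of all fold changes) of 0.0901 (adjusted p = 3.23e-27). It was higher than normal in implantation A too, by 0.81 ± 0.0691 (adjusted p = 2.61e-18), and lower there than in defect (-0.68 ± 0.0873, adjusted p = 1.77e-10). ECs+ implantation was below implantation B (-0.49 ± 0.0356, adjusted p = 1.12e-17) but above normal (1.49 ± 0.0576, adjusted p = 3.03e-36). The P4HA1 span overlaps NUDT13, which reached at most 23.4 CPM, and the sources used here do not say whether counting used strand.

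P4HA2 (chromosome 2, 134502210 to 134595444), the second subunit isoform, moved over a narrower range. It stood at 60.1, 62.9 and 58.1 CPM in normal, 79.4, 80.1 and 100.4 in defect, 92.6, 90.9 and 93.5 in implantation A, 81.6, 86.3 and 83.2 in implantation B, and 59.7, 63.6 and 63.6 in ECs+ implantation. Normal and ECs+ implantation overlapped and lay below the 9 libraries of the other groups. The rise over normal was 0.70 ± 0.0845 in defect (adjusted p = 5.15e-12) and 0.61 ± 0.0617 in implantation A (adjusted p = 9.53e-15), and ECs+ implantation was 0.46 ± 0.0459 below implantation B on the log2 scale (adjusted p = 8.02e-13). The gene span holds PDLIM4 and SLC22A4, which reached 1436 and 108 counts.

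P4HA3 (chromosome 9, 8627365 to 8681804), the third isoform, stood at 99.7, 99.2 and 96.9 CPM in normal, 117, 132 and 205 in defect, 192, 185 and 196 in implantation A, 248, 239 and 239 in implantation B, and 50.5, 49.0 and 56.4 in ECs+ implantation. It was the hydroxylase subunit that differed most between the implantation B and ECs+ implantation libraries, by a log2 fold change of -2.25 ± 0.0405 (adjusted p = 3.51e-43). The 3 defect libraries differed among themselves, with the 2 shallow ones at 25 and 33 counts and below all implantation A libraries. Defect 3 lay above the implantation A libraries in CPM. On TPM it lay below them, at 142.9 against 160.9 to 168.0. Against normal the log2 fold change was 0.97 ± 0.0827 in defect (adjusted p = 1.15e-18) and 0.95 ± 0.0619 in implantation A (adjusted p = 3.82e-24). Without defect 3 it was 0.34 in defect and did not pass (adjusted p = 0.244).

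SERPINH1 (chromosome 9, 9782939 to 9794485), the chaperone of the folded procollagen helix, stood at 563, 556 and 507 CPM in normal, 677, 685 and 817 in defect, 779, 768 and 801 in implantation A, 816, 799 and 795 in implantation B, and 369, 346 and 374 in ECs+ implantation. On TPM the defect libraries lay closer together, at 614, 611 and 616. The ECs+ implantation libraries were the lowest and the normal libraries the next, with no overlap between these and the rest. Its changes were small against those of the collagen chains, at 0.51 ± 0.0802 in defect (adjusted p = 3.77e-08) and 0.53 ± 0.066 in implantation A over normal (adjusted p = 4.34e-11). In ECs+ implantation it was 2.27-fold lower than in implantation B (-1.18 ± 0.0242 on the log2 scale, adjusted p = 2.87e-40). The gene at LOC102161477, in the same span, had at most 52 counts in any library.

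PLOD1 (chromosome 6, 71987938 to 72019712), which hydroxylates lysines of the helix, stood at 119, 109.7 and 110.0 CPM in normal, 126, 188 and 157 in defect, 129.99, 126 and 127 in implantation A, 148, 150.0 and 144 in implantation B, and 81.6, 77.8 and 85.0 in ECs+ implantation. The ECs+ implantation libraries were again the lowest, and the defect libraries were too far apart to lie on one side of implantation A or B. The rise in defect over normal was the smallest of the 10, at 0.48 ± 0.0789 (adjusted p = 1.27e-07), and did not pass with library size as the only scaling (0.12, adjusted p = 0.0967). In implantation A the log2 fold change over normal was 0.17 ± 0.0585 (adjusted p = 0.00709). That call was lost with DESeq2 size factors (0.12, adjusted p = 0.0606), with the DESeq2 Wald test (adjusted p = 0.286), on TPM values (0.27, adjusted p = 0.238), with every library thinned to the shallowest (0.031, adjusted p = 0.947), without implantation A 1 (0.16, adjusted p = 0.0551) and without normal 2 (0.16, adjusted p = 0.0666). ECs+ implantation was below implantation B by 0.89 ± 0.0389 (adjusted p = 2.2e-26).

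PLOD2 (chromosome 13, 86402673 to 86513167), which hydroxylates the telopeptide lysines at the chain ends and is linked to the stiffer crosslinks of scar tissue, stood at 35.7, 37.7 and 45.0 CPM in normal, 140.1, 124 and 141 in defect, 76.8, 81.8 and 84.9 in implantation A, 157, 164 and 150.0 in implantation B, and 76.4, 90.9 and 74.1 in ECs+ implantation. Normal was lowest, implantation A and ECs+ implantation overlapped in the middle, and defect and implantation B were highest. The log2 fold change over normal was 1.83 ± 0.0877 in defect (adjusted p = 8.49e-34), against 0.48 for PLOD1 in the same fit. Implantation A was 0.79 ± 0.0843 below defect (adjusted p = 1.45e-13) and 1.04 ± 0.0684 above normal (adjusted p = 2.63e-24), and ECs+ implantation was 2.002-fold below implantation B (-1.002 ± 0.0742, adjusted p = 1.46e-06).

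LOX (chromosome 2, 125595115 to 125607026), the founding lysyl oxidase, varied most of the 10. It stood at 34.9, 32.3 and 34.2 CPM in normal, 308, 260.2 and 305 in defect, 99.4, 102 and 102 in implantation A, 271, 264 and 271 in implantation B, and 17.4, 16.1 and 19.0 in ECs+ implantation. Defect and implantation B overlapped, and all other groups were apart. Even in the shallow libraries the 66 and 65 counts put LOX at 9.13 and 7.70 times the normal mean, with 95% exact Poisson intervals of 239 to 392.3 and 201 to 332 CPM that cover counting error only. The fitted change was 8.91-fold in defect over normal (3.15 ± 0.0786, adjusted p = 4.4e-55), and LOX was 2.97-fold lower in implantation A than in defect (-1.57 ± 0.0733, adjusted p = 3.6e-34) and 2.99-fold higher there than in normal (1.58 ± 0.0652, adjusted p = 1.76e-37). In ECs+ implantation it was 15.7-fold lower than in implantation B (-3.97 ± 0.0518, adjusted p = 2.12e-52). LOC100525452, which overlaps the LOX span, had at most 48 counts in a library.

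LOXL1 (chromosome 7, 59481410 to 59505161), which acts on elastin in elastic fibres, stood at 135, 131 and 119 CPM in normal, 140.1, 204 and 193 in defect, 172, 171 and 185 in implantation A, 136, 137 and 128 in implantation B, and 28.1, 29.0 and 29.9 in ECs+ implantation. LOXL2 (chromosome 14, 7435861 to 7540699), which crosslinks type IV and fibrillar collagen, stood at 121, 126 and 106 in normal, 145, 164 and 209 in defect, 139, 146 and 146 in implantation A, 116, 120.3 and 120.0 in implantation B, and 36.3, 36.6 and 33.0 in ECs+ implantation. Both genes were lower in the 3 ECs+ implantation libraries than in any other, and their other groups lay close together or overlapped. The log2 fold change of ECs+ implantation against implantation B was -2.24 ± 0.0496 for LOXL1 (adjusted p = 4.34e-40) and -1.79 ± 0.049 for LOXL2 (adjusted p = 1.23e-35). In defect over normal it was 0.57 ± 0.0801 (adjusted p = 1.17e-09) and 0.77 ± 0.0809 (adjusted p = 1.65e-14). Unlike LOX, neither passed between implantation B and normal (0.059, adjusted p = 0.286, and 0.016, adjusted p = 0.798), a pair whose sign was not stable. Without normal 3 both were lower in implantation B (-0.15, adjusted p = 0.00124, and -0.21, adjusted p = 1.16e-05), as with library size only (-0.25 and -0.30), and without normal 1 LOXL1 was higher (0.15, adjusted p = 0.00544). LOC110261566, in the LOXL1 span, had at most 29 counts.

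LOXL4 (chromosome 14, 109571942 to 109593408), the scarcest lysyl oxidase here, was higher in ECs+ implantation than in implantation A, implantation B and normal, where the other lysyl oxidases of the 10 were lower. It stood at 1.99, 2.97 and 2.94 CPM in normal, 4.67, 12.01 and 15.1 in defect, 2.71, 2.75 and 2.90 in implantation A, 4.10, 3.13 and 3.48 in implantation B, and 8.32, 9.34 and 8.51 in ECs+ implantation. The first 2 defect values are 1 and 3 counts, with 95% exact Poisson intervals of 0.118 to 26.0 and 2.48 to 35.1 CPM, so the change in defect over normal (2.47 ± 0.208, adjusted p = 3.83e-19) rests on the 226 counts of defect 3. Without that library it was 1.71 and did not pass (adjusted p = 0.206). LOXL4 was 2.38-fold higher in ECs+ implantation than in implantation B (1.25 ± 0.155, adjusted p = 2.41e-10) and 3.30-fold higher than in normal (1.72 ± 0.168, adjusted p = 1.06e-15).

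Defect was compared with normal tissue. All 10 genes were higher in defect (32% of all genes tested were, and 31.9% were lower), led by LOX and LOXL4 and followed by PLOD2 and P4HA1. The median log2 fold change of the 10 was 0.87, against -0.048 over all genes. No defect library overlapped a normal one for any of the 10, as was so for 50.7% of all genes. In defect 1, the 95% exact Poisson intervals of LOXL1, LOXL2, LOXL4, PLOD1, P4HA2 and P4HA3 covered normal levels. For LOXL1 the interval was 94.6 to 200.1 CPM and for P4HA3 75.6 to 172.4. Those of LOX, PLOD2, P4HA1 and SERPINH1 lay above the normal libraries. Over the mean of normal the 10 stood at 1.09 to 9.13 times in defect 1, at 1.26 to 7.70 times in defect 2 and at 1.39 to 9.04 times in defect 3. Fitted without defect 3, the log2 fold changes of LOXL1 (0.45, adjusted p = 0.065), LOXL2 (0.40, adjusted p = 0.13), P4HA2 (0.40, adjusted p = 0.286), P4HA3 and LOXL4 did not pass, and 5 of 10 did (3521 of 18208 genes tested). Beside these changes, fibroblast markers summed to 4347 ± 396 CPM in defect and 2146 ± 88.6 in normal, with 7 of 10 higher and 1 lower, macrophage markers to 916.5 ± 134 and 289 ± 8.76, with 7 of 7 higher, and keratinocyte markers to 2614 ± 254 and 853 ± 34.1, with 4 of 5 higher and 1 lower. Endothelial markers summed to 2224 to 2771 CPM in the defect libraries and 3724 to 3961 in the normal ones, with 7 of 9 lower. Their part in the result was not tested.

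**Figure D2:**
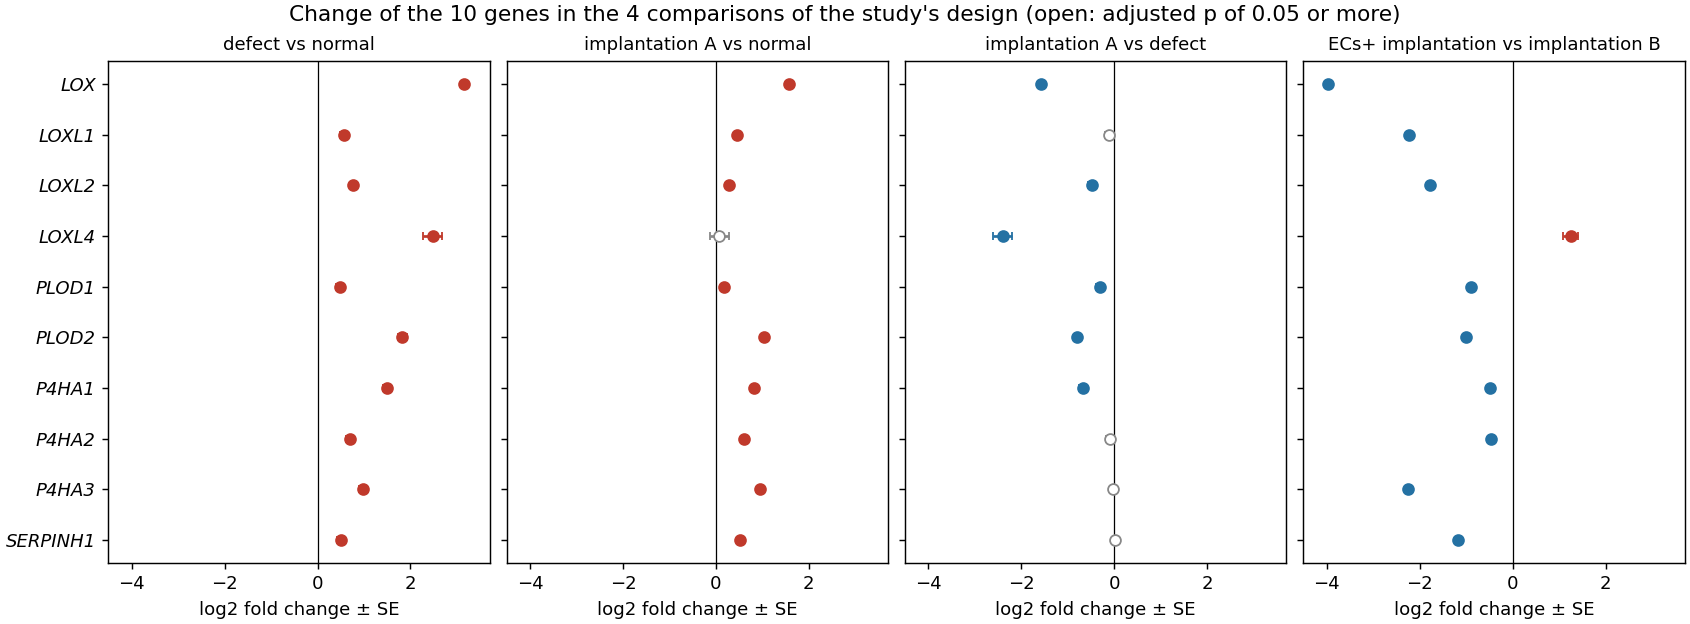
Log2 fold change ± SE (horizontal axes) of each of the 10 genes (rows) in the 4 comparisons of the study's design, with filled points for an adjusted p under 0.05. LOX has the largest change of the 10 against normal, 3.15 in defect and 1.58 in implantation A, and LOXL4 alone lies above 0 in ECs+ implantation against implantation B, at 1.25.

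Implantation A was compared with defect and with normal tissue. Against defect, 6 of the 10 were lower and 0 higher (21.4% and 20.4% of all genes), namely LOX, LOXL4, PLOD2, P4HA1, LOXL2 and PLOD1. The last 2 fell by 0.49 ± 0.0804 (adjusted p = 2.37e-07) and 0.30 ± 0.0786 (adjusted p = 0.000933) on the log2 scale although their libraries overlapped. LOXL1 (-0.12, adjusted p = 0.243), P4HA2 (-0.094, adjusted p = 0.38), P4HA3 (-0.019, adjusted p = 0.876) and SERPINH1 (0.022, adjusted p = 0.853) did not pass. With library size as the only scaling these 4 were higher in implantation A and passed, at 0.17, 0.20, 0.26 and 0.26, a setting that moved the median over all genes from 0.021 to 0.33. On log2(TPM + 1), where that median was 0.35, P4HA2 (0.27), P4HA3 (0.51) and SERPINH1 (0.25) were likewise higher and passed, while LOXL2 (-0.10, adjusted p = 0.402), PLOD1 (-0.13, adjusted p = 0.475) and P4HA1 (-0.40, adjusted p = 0.138) did not pass. PLOD1 was also lost with library size only (-0.0094, adjusted p = 0.917), and LOXL2 and PLOD1 with limma-voom (adjusted p = 0.16 and 0.218). Without defect 3, LOX and PLOD2 were lower and P4HA3 was higher (0.61, adjusted p = 0.0129), and the other 7 did not pass. The libraries of 4 members did not overlap (40.3% of all genes).

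Against normal, 9 of the 10 were higher in implantation A and 0 lower (32.2% and 32.3% of all genes), with LOXL4 not passing (0.077, adjusted p = 0.744). LOXL1 rose by 0.45 ± 0.0596 (adjusted p = 2.22e-10) and LOXL2 by 0.29 ± 0.0612 (adjusted p = 2.95e-05). The median of the 10 was 0.57, against -0.025 over all genes. The libraries of 9 members did not overlap (68.8% of all genes). The comparison shares libraries with both others. Set side by side, the change over normal was 3.15 in defect and 1.58 in implantation A for LOX, 1.83 and 1.04 for PLOD2, 1.49 and 0.81 for P4HA1, 0.97 and 0.95 for P4HA3, and 0.51 and 0.53 for SERPINH1. Fibroblast markers summed to 2627 ± 16.4 CPM in implantation A and 2146 ± 88.6 in normal, with 8 of 10 higher than in normal and 2 lower. Macrophage markers summed to 329.6 ± 2.31 and 289 ± 8.76 CPM, with 2 of 7 higher and 3 lower (median -0.12). Smooth muscle markers summed to 5824 ± 38.7 CPM, against 2854 ± 316 in defect and 3742 ± 124 in normal. Against normal, endothelial markers were lower for 9 of 9 (2189 ± 15.9 and 3862 ± 124 CPM) and keratinocyte markers higher for 5 of 5 (2079 ± 7.36 and 853 ± 34.1 CPM). The part of these cell types was not tested.

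ECs+ implantation was compared with implantation B. The members were mostly lower in ECs+ implantation: 9 of 10 were lower and 1, LOXL4, higher (38.1% and 37.8% of all genes). LOX, P4HA3, LOXL1 and LOXL2 were the furthest below. The libraries of the groups did not overlap for any of the 10, as for 77.6% of all genes, and the median was -1.09 against 0.018 over all genes. Every one of these 10 calls held with each library left out in turn. Thinned to the shallowest total, 6 of the 10 were still called (1949 of the 4741 genes tested). PLOD1, P4HA1 and P4HA2 did not pass (adjusted p = 0.0789, 0.0532 and 0.2), and LOXL4 was not tested. Keratinocyte markers summed to 2123 ± 19.9 CPM in implantation B and 2.59 ± 0.176 in ECs+ implantation, fibroblast markers to 3817 ± 65.2 and 1584 ± 22.6, macrophage markers to 766 ± 4.07 and 305 ± 2.88, and endothelial markers to 1834 ± 9.72 and 3761 ± 48.7. Keratinocyte, fibroblast and macrophage sums were lower in ECs+ implantation, as 9 of the 10 members were, while the endothelial sum was higher. The part of these cell types was not tested.

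ECs+ implantation was also set against normal, a pair outside the study's design. There 3 members were higher and 6 lower (35.7% and 35.6% of all genes). Keratinocyte markers, 5 of 5 lower, summed to 2.59 ± 0.176 and 853 ± 34.1 CPM. Fibroblast markers summed to 1584 ± 22.6 and 2146 ± 88.6 CPM, although 5 of these 10 were higher and 4 lower (median 0.29). The part of these cell types was not tested. LOXL4, P4HA1 and PLOD2 (1.03 ± 0.0707, adjusted p = 3.74e-16) were higher. LOXL1 (-2.14 ± 0.0599, adjusted p = 1.36e-45) and LOXL2 (-1.74 ± 0.0604, adjusted p = 1.68e-38) were lower by most, followed by LOX (-0.95), P4HA3 (-0.92), SERPINH1 (-0.58) and PLOD1 (-0.47). P4HA2 did not pass (0.045, adjusted p = 0.469), and on log2(TPM + 1) it was lower and passed (-0.28, adjusted p = 0.00237), where the median over all genes was -0.25. The LOXL4 libraries of ECs+ implantation lay above all normal ones, as did those of P4HA1 and PLOD2. The collagen chains did not move as one in this pair, with COL1A1 lower (-1.02 ± 0.0648, adjusted p = 1.74e-23) and COL1A2 (0.60 ± 0.061, adjusted p = 3.55e-14) and COL3A1 (0.91 ± 0.0603, adjusted p = 1.16e-22) higher.

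In the remaining pairs, implantation B was above normal for 8 members and below for 0 (37.1% and 36.7% of all genes), above implantation A for 5 and below for 3 (27.2% and 23.6%), and above defect for 2 and below for 5 (15.7% and 13.8%). The last split depended on the setting. Without defect 3, 2 were higher and 0 lower (850 and 234 of 18665 genes tested), and with limma-voom 0 higher and 2 lower (390 and 653 of 18316). The 8 above normal include LOXL4 (0.44, adjusted p = 0.0321), whose call was lost with DESeq2 size factors, library size only, the stricter filter, the DESeq2 Wald test, TPM values and a fit of the 2 groups alone (adjusted p = 0.0518 to 0.565). It was lost too without implantation B 1 or any 1 of the normal libraries (adjusted p = 0.101 to 0.159). ECs+ implantation was above defect for 0 and below for 9 (32.6% and 29.7%), and above implantation A for 2 and below for 7 (36.9% and 33.5%). LOX was 2.65-fold and P4HA1 2.18-fold higher in implantation B than in implantation A (1.41 ± 0.047, adjusted p = 1.5e-39, and 1.13 ± 0.0529, adjusted p = 1.36e-30), while LOXL1 (-0.40), LOXL2 (-0.27) and P4HA2 (-0.14) were lower. P4HA2 lost that call in 4 of the 6 fits without 1 library of these groups, with adjusted p-values of 0.0611 to 0.0997. SERPINH1 did not pass between the 2 implantation groups (0.037, adjusted p = 0.541), and with library size only it was lower in implantation B (-0.21, adjusted p = 3.95e-08).

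Ordered by mean level, LOX ran from defect over implantation B, implantation A and normal to ECs+ implantation, with each neighbour passing the test, although defect and implantation B overlapped (0.17 ± 0.0597, adjusted p = 0.0251). That first step did not pass without any 1 of the implantation B libraries (adjusted p = 0.0577 to 0.0966) or without defect 3 (adjusted p = 0.819). PLOD1 had the same order, with defect and implantation B not differing beyond their spread (adjusted p = 0.31). LOXL1 and LOXL2 ran from defect over implantation A, implantation B and normal to ECs+ implantation. Their implantation B and normal levels did not pass, nor did defect and implantation A for LOXL1.

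PLOD2 was highest in implantation B and defect, which did not pass against each other (0.16, adjusted p = 0.148), then in implantation A and ECs+ implantation, which did not either (adjusted p = 0.859), and lowest in normal. P4HA1 ran from implantation B over ECs+ implantation, defect and implantation A to normal. Its ECs+ implantation and defect levels did not differ beyond their spread (adjusted p = 0.897), and with library size only ECs+ implantation was higher (0.24, adjusted p = 0.00244). P4HA3 and SERPINH1 had one order, implantation B, implantation A, defect, normal and ECs+ implantation, and implantation A and defect did not pass for either. P4HA2 was highest in implantation A and defect and lowest in ECs+ implantation and normal, which did not pass. Against the order of the means, the fitted change of implantation A over defect was -0.094 for P4HA2 and -0.019 for P4HA3. For P4HA1 that of ECs+ implantation over defect was -0.012, and none of these passed. LOXL4 ran from defect over ECs+ implantation to implantation B, implantation A and normal, and the last 2 steps did not pass (adjusted p = 0.1 and 0.744). Its first step, with overlapping libraries, turned sign without defect 3 (0.022, adjusted p = 0.988) and was lost with limma-voom (adjusted p = 0.304) and on log2(TPM + 1) (adjusted p = 0.188). Of the 40 neighbouring pairs over the 10 genes 26 passed, 4 of them with libraries that overlapped.

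Within families the leading isoenzyme changed with the group. As shares of the summed TPM of LOX and LOXL1 to LOXL4, LOX made up 18.6 ± 1.39% in normal, 57.3 ± 4.07% in defect, 34.9 ± 0.568% in implantation A, 61.4 ± 0.827% in implantation B and 25.1 ± 1.81% in ECs+ implantation (SD, n = 3). LOXL1 led in normal (42.2 ± 0.484%) and implantation A (36.2 ± 0.793%). In ECs+ implantation LOXL3 (26.0 ± 0.665%), LOX and LOXL1 (24.6 ± 0.66%) had nearly equal shares. The family's summed level was 229.7 ± 11.7 TPM in normal, 626 ± 27.9 in defect, 394 ± 8.41 in implantation A, 513 ± 2.61 in implantation B and 67.5 ± 0.955 in ECs+ implantation.

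Of the prolyl 4-hydroxylase subunits, P4HA3 led in 4 groups, with 47.6 ± 6.43% of the summed TPM in defect to 57.1 ± 0.608% in implantation A, and P4HA1 led in ECs+ implantation with 44.8 ± 1.82%. In every ECs+ implantation library the P4HA1 share, 42.7% to 45.9%, lay above all other libraries, the highest of which was 35.9% in defect. PLOD2 made up 14.5 ± 1.98% of the lysyl hydroxylases in normal, 34.6 ± 6.59% in defect, 24.8 ± 0.971% in implantation A, 36.9 ± 0.888% in implantation B and 31.5 ± 3.06% in ECs+ implantation. Its share was lowest in the 3 normal libraries. PLOD3 led in normal (45.0 ± 1.5%) and ECs+ implantation (38.0 ± 1.60%), where by shares of counts, which favour long transcripts, PLOD1 led instead.

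**Figure D3:**
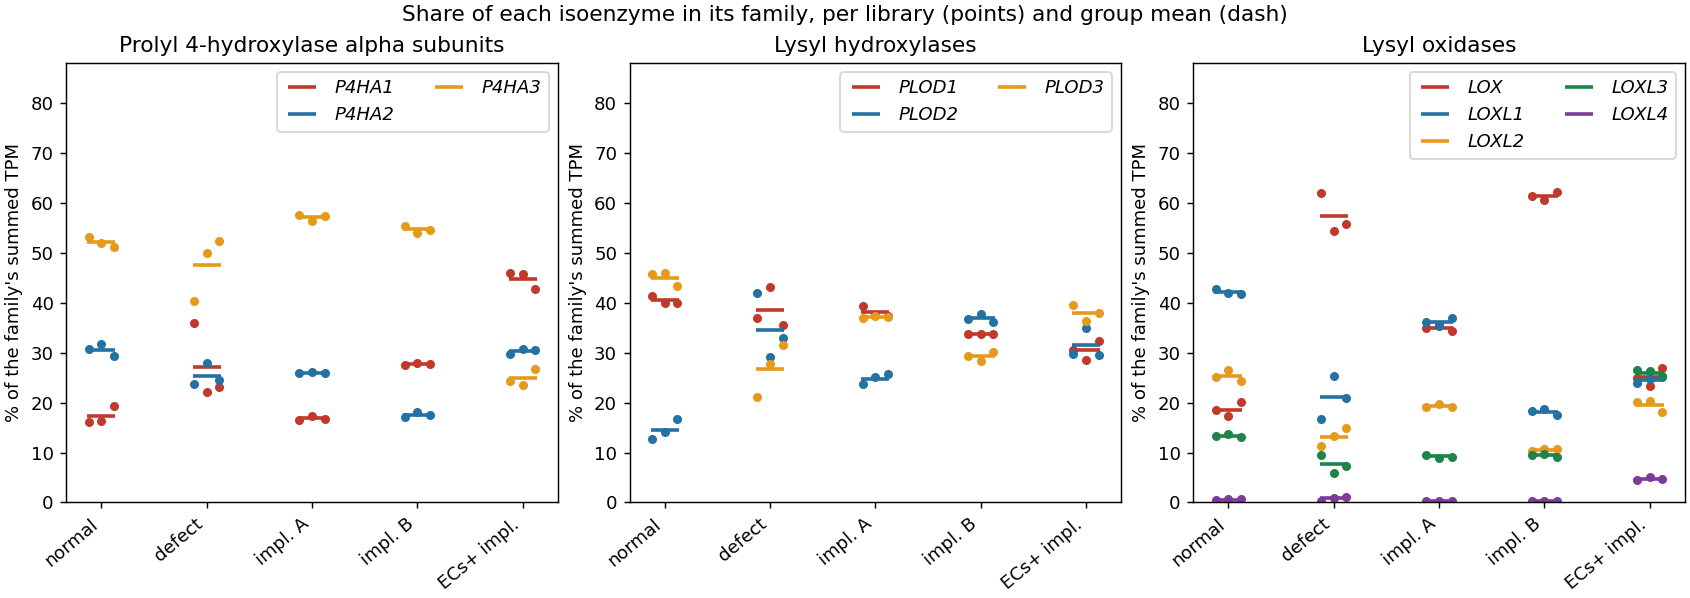
Share of each isoenzyme in the summed TPM of its family, in percent (vertical axes), per library (points) and as the group mean (dash) in the 5 groups. LOX holds 18.6% of the lysyl oxidases in normal, 57.3% in defect and 61.4% in implantation B, and P4HA1 leads its family in ECs+ implantation at 44.8%.

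In defect over normal the 3 main substrate chains changed more than each member but LOX. COL1A1, COL1A2 and COL3A1, chains of the main fibrillar collagens, together took 1.58 to 1.60% of counts in the normal libraries, 12.9 to 13.3% in defect, 6.94 to 6.95% in implantation A, 11.86 to 12.04% in implantation B and 1.51 to 1.52% in ECs+ implantation. In defect over normal COL1A1 changed by 3.14 ± 0.0981, COL1A2 by 3.35 ± 0.0912 and COL3A1 by 3.41 ± 0.0908. Of the 10 members LOX alone had a change of that size. Per 1000 counts of these 3 chains, LOX stood at 2.37, 2.22 and 2.41 in normal, 2.46, 1.95 and 1.98 in defect, 1.51, 1.55 and 1.55 in implantation A, 2.03, 1.98 and 1.99 in implantation B, and 1.17, 1.09 and 1.27 in ECs+ implantation. SERPINH1 stood on that scale at 37.4 ± 1.40 in normal, 5.28 ± 0.145 in defect, 11.9 ± 0.239 in implantation A, 5.97 ± 0.132 in implantation B and 24.5 ± 0.887 in ECs+ implantation.

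Tested with each library scaled to those collagen counts, all 10 were lower in defect than in normal and 0 higher (98.3% and 0.672% of all genes), with a median of -2.50 for the 10 and -3.44 for all. LOX was lower by 0.21 ± 0.0734 (adjusted p = 0.00711) and SERPINH1 by 2.82 ± 0.0443 (adjusted p = 3.39e-38). The LOX call was lost without defect 3 (-0.097, adjusted p = 0.475) and with COL1A1 counts alone as the scale (-0.082, adjusted p = 0.314). In implantation A all 10 were lower than in normal and 0 higher (97.3% and 0.689% of all genes), with LOX at -0.60 ± 0.0604 (adjusted p = 5.48e-12). Against defect 8 were higher there and 2, LOX (-0.39 ± 0.0688, adjusted p = 2.27e-06) and LOXL4 (-1.18 ± 0.207, adjusted p = 1.45e-06), lower (89.3% and 2.16% of all genes). The medians of the 10 and of all genes were -1.61 and -2.21 in implantation A over normal, and 0.80 and 1.23 over defect.

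In ECs+ implantation against implantation B, 9 were higher per collagen count and LOX was lower (95.9% and 2.26% of all genes). P4HA1 went from 1.12 ± 0.026 to 7.41 ± 0.215 per 1000 collagen counts, 6.60-fold (2.72 ± 0.0372, adjusted p = 4.81e-49), and P4HA2 from 0.622 ± 0.0214 to 4.20 ± 0.155, 6.75-fold (2.75 ± 0.0474, adjusted p = 1.36e-44). Both lay below the median over all genes on this scale, 3.23, and that of the 10 was 2.12. LOX was lower by 0.76 ± 0.0575 (adjusted p = 8e-18), and higher by 0.42 (adjusted p = 1.02e-08) when COL1A1 counts alone were the scale. The collagen chains differed among themselves in this comparison, with -4.39 ± 0.0133 for COL1A1, -2.84 ± 0.0138 for COL1A2 and -1.63 ± 0.0144 for COL3A1.

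**Figure D4:**
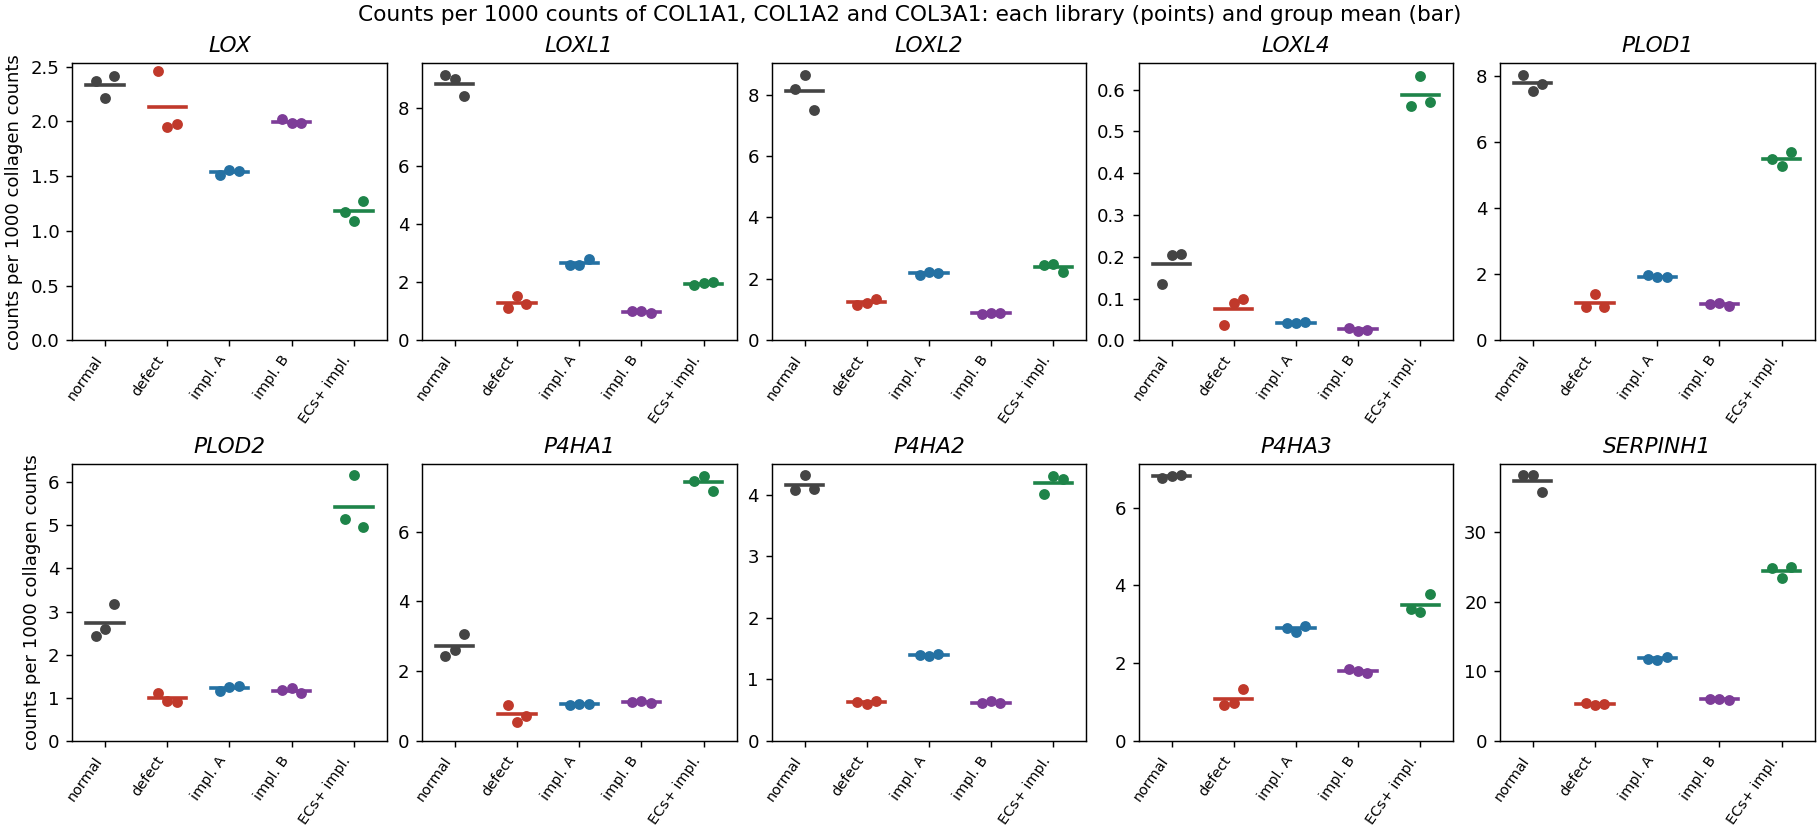
Counts of each of the 10 genes per 1000 counts of COL1A1, COL1A2 and COL3A1 (vertical axes, each from 0) in the 15 libraries (points) of 5 groups, with the group mean. LOX stays between 1.09 and 2.46 in all libraries, while SERPINH1 falls from 37.4 in normal to 5.28 in defect.

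Of the 17 other genes of collagen modification and folding, 12 were higher and 2 lower in defect than in normal (median 0.58), 3 higher and 9 lower in implantation A than in defect (median -0.19), 11 higher and 2 lower in implantation A than in normal (median 0.33), and 2 higher and 14 lower in ECs+ implantation than in implantation B (median -0.99). Of all genes, 32% and 31.9%, 20.4% and 21.4%, 32.2% and 32.3%, and 37.8% and 38.1% were higher and lower in these comparisons. P4HB, the subunit that the collagen prolyl 4-hydroxylases share, changed by 0.72 ± 0.0784 in defect over normal (adjusted p = 1.09e-13) and by -1.09 ± 0.0261 in ECs+ implantation against implantation B (adjusted p = 9.6e-38). FKBP10, a folding enzyme that helps telopeptide lysine hydroxylation, changed by 1.10 and -1.45 and its relative FKBP7 by 2.15 and -0.99. MIA3, which helps load procollagen into transport carriers, changed by 0.85 and -1.07, FKBP14 by 0.90 and -1.96, and COLGALT1, which adds galactose to hydroxylysine, by 0.51 and -0.66.

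The prolyl 3-hydroxylase family split. P3H2, which acts mostly on basement membrane collagen, was lower in defect than in normal (-1.28 ± 0.106, adjusted p = 4.63e-19) and 2.05 ± 0.0426 higher in ECs+ implantation than in implantation B (adjusted p = 2.75e-41). P3H3 (0.90 and -1.55) and P3H4 (0.52 and -1.48) had the opposite signs in these comparisons. P3H1 changed by 0.19 (adjusted p = 0.034) and -0.67, its partner CRTAP by 0.58 and -0.41, and PPIB, the third protein of that complex, by 0.68 and, without passing, -0.062 (adjusted p = 0.0949). COLGALT2, the second galactosyltransferase, went with P3H2, at -1.52 ± 0.112 (adjusted p = 6.97e-22) and 1.87 ± 0.0543 (adjusted p = 7.12e-35).

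The remaining genes of the list differed between the 2 comparisons. PLOD3 did not pass in defect over normal (0.13, adjusted p = 0.157) and was 0.42 lower in ECs+ implantation than in implantation B, and LOXL3 changed by 0.66 and -1.16. CREB3L1, a transcription factor that drives collagen gene expression, did not pass in defect over normal (0.11, adjusted p = 0.229) and was 2.98 ± 0.0381 lower on the log2 scale in ECs+ implantation than in implantation B (adjusted p = 1.7e-50). TMEM38B, an ion channel of the endoplasmic reticulum needed for collagen output, did not pass in defect over normal (0.087, adjusted p = 0.844) and was lower in ECs+ implantation (-0.78, adjusted p = 0.0025).

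**Figure D5:**
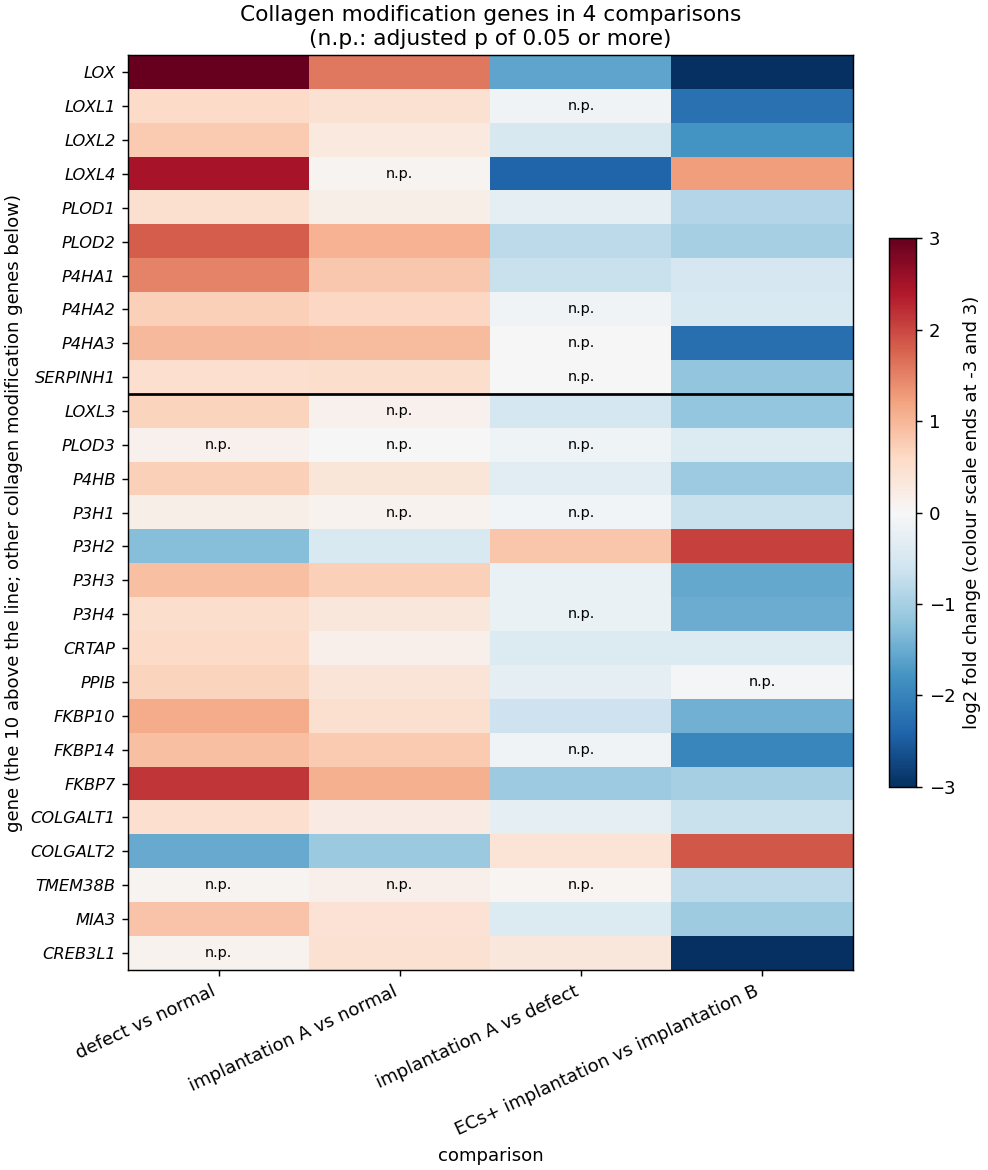
Log2 fold change (colour, scale ending at -3 and 3) of the 10 genes and of 17 other collagen modification genes (rows) in the 4 comparisons of the design (columns), with n.p. where the adjusted p was 0.05 or more. P3H2 and COLGALT2 are lower in defect than in normal, at -1.28 and -1.52, and with LOXL4, at 1.25, higher in ECs+ implantation than in implantation B, at 2.05 and 1.87.

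Of 20 genes known to respond to low oxygen, a setting in which P4HA1, P4HA2, PLOD2 and LOX are also known to rise, 9 were higher and 7 lower in defect than in normal (median 0.047). Over all genes, 32% were higher and 31.9% lower. LDHA, a glycolytic enzyme, rose by 1.45, while VEGFA (-1.67) and DDIT4 (-0.97) fell. In ECs+ implantation against normal 14 were higher and 3 lower (35.7% and 35.6% of all genes, median 0.47). The 3 smallest p-values were in SLC2A1 (-1.46), VEGFA (-1.23) and BNIP3L (0.88). Of 7 genes that supply copper to lysyl oxidases or ascorbate to hydroxylases, 3 were higher and 2 lower in defect than in normal. Over all genes, 32% and 31.9% were. SLC31A1, a copper importer, changed by 1.77 in defect over normal and by -2.50 in ECs+ implantation against implantation B, and ATP7A, the pump that loads copper onto secreted enzymes, by 0.82 and -1.18. ATP7B, a related copper pump, was lower in defect (-1.54), and CCS, the copper chaperone of superoxide dismutase, was higher in ECs+ implantation (1.21). In ECs+ implantation against implantation B 4 of the 7 were higher and 3 lower (37.8% and 38.1% of all genes, median 0.26).

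Of 15 genes of procollagen cleavage and fibril assembly, 10 were higher and 2 lower in defect than in normal (median 1.49), and 4 higher and 11 lower in ECs+ implantation than in implantation B (median -1.18). Over all genes, 32% were higher and 31.9% lower in defect, and 37.8% higher and 38.1% lower in ECs+ implantation. ADAMTS2, which removes the amino-terminal propeptide, changed by 3.55 and -2.89. Of 12 elastic fibre genes, whose fibres LOX and LOXL1 crosslink, 7 were higher and 0 lower in defect than in normal (median 0.78), and 1 higher and 11 lower in ECs+ implantation than in implantation B (median -1.33). FBN1, fibrillin of the microfibrils, changed by 2.31 and -2.40, and elastin itself, ELN, by -1.30 in the latter.

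Across the 13 libraries of full depth, the members did not vary as one group. Log2 CPM of LOX had a Pearson r of 0.98 with the mean of the other members' standardised values, P4HA3 of 0.92, SERPINH1 of 0.90, PLOD1 of 0.89 and P4HA2 of 0.88, but P4HA1 of only 0.33 and LOXL4 of -0.20. The closest pairs were LOXL1 with LOXL2 (0.99) and P4HA3 with SERPINH1 (0.99), and the furthest was LOXL1 with LOXL4 (-0.56). Outside all lists, the 5 genes most like the mean of the 10 among 10604 candidates were COL6A2 (r = 0.994), SLC39A7 (0.994), ITGA11 (0.994), COL6A3 (0.992) and SPARC (0.991). COL6A2 and COL6A3 are chains of type VI collagen, ITGA11 a collagen-binding integrin subunit, SPARC a collagen-binding matrix protein and SLC39A7 a zinc transporter. Mean SPARC levels were 5989 CPM in normal, 18970 in defect, 11980 in implantation A, 19240 in implantation B and 4858 in ECs+ implantation. These values share libraries and group differences, and are a description over 13 libraries of 5 groups.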

How the data were processed

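Libraries of polyadenylated RNA were made, per the labels, with Illumina's TruSeq RNA Library Prep Kit v2. Tools in the submitters' processing notes are fastp, HISAT2, HTSeq and DESeq2, with Sscrofa11.1 as build. Versions, settings and strand of counting are not given in the sources used here. The authors deposited raw gene counts and TPM values for the same 26654 genes. Coordinates came from a RefSeq gene table of Sscrofa11.1.

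Counts were tested with edgeR 4.0.16 (R 4.3.3): filterByExpr, TMM factors, robust glmQLFit, glmQLFTest, two-sided, Benjamini-Hochberg adjustment over all genes tested, threshold 0.05. Normal, defect and implantation A shared a fit of 9 libraries, implantation B and ECs+ implantation one of 6, and the other 6 pairs one of 15. Standard errors are Wald errors with the quasi-likelihood dispersion. The per-collagen fits used summed COL1A1, COL1A2 and COL3A1 counts as library size. Alternatives were DESeq2 1.42.0, limma 3.58.1 (voom, and trend on log2(TPM + 1) or + 0.1), other scalings and filters, other sets of libraries, a replicate block, thinning and leaving out libraries. The scripts' tests were checked on simulated counts. Thinning keeps each read with equal probability. It replaced edgeR's thinCounts after that function's implausible values were seen.

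The 10 genes and all gene lists were chosen with earlier results of these data known. Named were all 10, the 17 other modification genes, 3 collagen chains, up to 3 genes of smallest p from each context list described, and the 5 genes of highest correlation. Cell type marker lists are given as sums. KRT14 was not among the symbols of the table.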

Additional observations from a re-analysis of the deposited data

How the results depend on the processing

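Of the log2 fold changes recomputed for the 10 genes, 1970 kept their direction and side of the threshold, 103 no longer passed, 9 newly passed and 78 turned sign, 19 of those past the threshold and 49 between -0.1 and 0.1. The number of the 10 genes called was 2 in implantation A against defect, 6 in ECs+ implantation against implantation B, 4 in implantation B against implantation A, 5 in implantation B against normal, 5 in ECs+ implantation against normal and 4 in implantation B against defect when every library was thinned to the shallowest total. With limma-voom 2 of the 10 were called in implantation B against defect (1043 of 18316). Without defect 3 the number was 5 in defect against normal (3521 of 18208), 3 in implantation A against defect (1455 of 18208) and 2 in implantation B against defect (1084 of 18665). The causes were not tested.

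Leaving out 1 library at a time gave 5 to 10 called in defect against normal (9 to 10 per collagen count), 3 to 6 in implantation A against defect (7 to 10 per collagen count), 8 to 9 in implantation A against normal (10 to 10 per collagen count), 10 to 10 in ECs+ implantation against implantation B with and without the collagen scale, 7 to 8 in implantation B against implantation A, 7 to 9 in implantation B against normal, 9 to 9 in ECs+ implantation against normal and against implantation A, 6 to 9 against defect, and 2 to 7 in implantation B against defect. Of these fits, counts over all genes are given here only for those without defect 3.

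Same-numbered libraries did not deviate together (correlations of -0.149 to 0.187), so the numbers were not taken as pairs. The replicate block left 10 genes called in defect against normal, 6 in implantation A against defect, 9 in implantation A against normal and 10 in ECs+ implantation against implantation B, and 6 in place of 7 in implantation B against defect. Over all genes, it gave 5275 higher and 5388 lower, 3180 and 3082, 5623 and 5638, 6452 and 6505, and 2716 and 2316 in these comparisons.

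The following log2 fold changes had the opposite sign to the value reported. DESeq2 size factors gave P4HA3 0.028 in implantation A against defect, SERPINH1 -0.017 in implantation B against implantation A, LOXL1 -0.053, LOXL2 -0.10 in implantation B against normal, P4HA2 -0.056 in ECs+ implantation against normal, SERPINH1 -0.011 in implantation B against defect. Scaling by library size only gave LOXL1 0.17, P4HA2 0.20, P4HA3 0.26 in implantation A against defect, PLOD1 -0.042, SERPINH1 -0.21 in implantation B against implantation A, LOXL1 -0.25, LOXL2 -0.30 in implantation B against normal, P4HA2 -0.063 in ECs+ implantation against normal, P4HA1 0.24 in ECs+ implantation against defect. A stricter low-count filter gave SERPINH1 -0.013 in implantation A against defect, LOXL2 -0.031 in implantation B against normal. The DESeq2 Wald test gave P4HA3 0.11 in implantation A against defect, SERPINH1 -0.017 in implantation B against implantation A, LOXL1 -0.053, LOXL2 -0.10 in implantation B against normal, P4HA2 -0.056 in ECs+ implantation against normal, SERPINH1 -0.010 in implantation B against defect. Limma-voom with quality weights gave P4HA3 0.14 in implantation A against defect, LOXL4 -0.0059 in implantation A against normal, LOXL2 -0.046 in implantation B against normal, P4HA1 0.052 in ECs+ implantation against defect. Limma-trend on log2(TPM + 1) gave LOXL1 0.13, P4HA2 0.27, P4HA3 0.51 in implantation A against defect, PLOD1 -0.010, SERPINH1 -0.18 in implantation B against implantation A, LOXL1 -0.051, LOXL2 -0.10 in implantation B against normal, P4HA2 -0.28 in ECs+ implantation against normal. Limma-trend on log2(TPM + 0.1) gave LOXL1 0.13, P4HA2 0.28, P4HA3 0.51 in implantation A against defect, PLOD1 -0.010, SERPINH1 -0.18 in implantation B against implantation A, LOXL1 -0.052, LOXL2 -0.10 in implantation B against normal, P4HA2 -0.28 in ECs+ implantation against normal. A fit of only the 2 groups compared gave P4HA3 0.013 in implantation A against defect, SERPINH1 -0.013 in implantation B against defect, P4HA1 0.066 in ECs+ implantation against defect. The replicate block gave P4HA3 0.040 in implantation A against defect, P4HA1 0.0045 in ECs+ implantation against defect. Thinning every library gave LOXL1 0.035, P4HA2 0.14, P4HA3 0.44 in implantation A against defect, SERPINH1 -0.036 in implantation B against implantation A, LOXL2 -0.21 in implantation B against normal, P4HA2 -0.081 in ECs+ implantation against normal, P4HA1 0.26 in ECs+ implantation against defect. Leaving out both shallow defect libraries gave SERPINH1 -0.061 in implantation A against defect, SERPINH1 -0.021 in implantation B against defect. Scaling to COL1A1 counts alone gave LOX 0.42 in ECs+ implantation against implantation B per collagen count. With 1 library left out at a time, the value ranged from -0.15 to 0.012 for LOXL1, -0.11 to 0.21 for P4HA2, -0.061 to 0.61 for P4HA3 and -0.016 to 0.20 for SERPINH1 in implantation A against defect, and from -0.073 to 0.17 for LOXL4 in implantation A against normal. It ranged from -0.15 to 0.15 for LOXL1 and -0.21 to 0.087 for LOXL2 in implantation B against normal, from -0.25 to 0.078 for P4HA2 in implantation B against defect, from -0.80 to 0.022 for LOXL4 and -0.036 to 0.15 for P4HA1 in ECs+ implantation against defect, from -0.073 to 0.081 for P4HA2 against normal and from -0.11 to 0.044 for PLOD2 against implantation A.

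Over all genes, the count called in defect against normal was 7460 with DESeq2, 5300 with limma-voom and 3521 without defect 3 (5715 higher and 5692 lower as reported), in implantation A against defect it was 3830, 1741 and 1455 (3642 and 3823), and in implantation A against normal it was 6936 with DESeq2, 3286 on log2(TPM + 1) and 2906 on log2(TPM + 0.1) (5755 and 5767). With every library thinned it lay between 465 and 2420 over the 10 comparisons. In the pairs outside the design, implantation B against defect had 3193 with DESeq2, 1043 with limma-voom and 1084 without defect 3 (2870 higher and 2529 lower as reported), and ECs+ implantation against defect had 5468 with limma-voom and 3635 without defect 3 (5974 and 5446). On log2(TPM + 1) there were 3542 in implantation B against implantation A (4978 and 4329), 7832 in implantation B against normal (6796 and 6715), 7462 in ECs+ implantation against normal (6539 and 6517) and 7949 against implantation A (6765 and 6136). Per collagen count, implantation A against defect had 9164 without defect 3 (15946 and 386). Scaling by library size only turned the split of higher and lower calls to 3456 and 8894 in defect against normal and to 7931 and 1761 in implantation A against defect. The depth of defect 1 and defect 2 limits every comparison with defect.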
